A study of Arabidopsis thaliana with 13 samples.

Results

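The 5 MIR172 loci of Arabidopsis thaliana, ath-MIR172a, ath-MIR172b, ath-MIR172c, ath-MIR172d and ath-MIR172e, were chosen by their family name among the 325 miRNA genes of a small RNA sequencing table. All 5 were followed in 13 libraries, and 2 of them, ath-MIR172d and ath-MIR172e, had enough reads for a test. Every library came from Landsberg plants of the genotype pAP1:AP1-GR ap1-1 cal-1, including the untreated ones, and all were grown in long days. In these plants 2 mutations leave the shoot apex producing meristems with inflorescence identity, and the AP1 promoter drives a fusion of AP1 with the hormone-binding part of the glucocorticoid receptor. Dexamethasone then starts synchronous flower formation. The labels give the dose as 2 mM in the treatment protocol and as 1 µM in the design text. There were 2 libraries of untreated inflorescences (day 0), 3 of inflorescences after 2 days of dexamethasone, 2 after 4 days and 3 after 8 days. The other 3 were of vegetative seedlings, also untreated. One day 2 library, replicate 1, carries the time label of day 0, while its title and agent are those of day 2, and it was kept with day 2. No age of the plants is stated. The table holds miRNA genes only, so the tissue labels were not checked against protein-coding markers.

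miR172 is a plant microRNA that pairs with messenger RNAs of AP2-like transcription factors and lowers the output of these genes through both cleavage and reduced translation. Its targets TOE1, TOE2, TOE3, SMZ and SNZ are paralogs of AP2 described as repressors of flowering, and AP2 also specifies the outer floral organs. In the known order of phase change, miR156 restrains SPL transcription factors in young plants, and SPL proteins activate MIR172 genes as the plant ages.

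The mature sequences show which loci a read can be told apart from, and are printed 5′ to 3′ with the seed, bases 2 to 8, in capitals. They were read from the TAIR10.1 reference with RefSeq annotation, which is of the Columbia accession and not of Landsberg.
miR172a: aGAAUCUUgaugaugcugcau
miR172b-3p: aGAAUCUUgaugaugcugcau
miR172c: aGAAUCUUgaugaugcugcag
miR172d-3p: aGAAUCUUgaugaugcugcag
miR172e-3p: gGAAUCUUgaugaugcugcau
miR172b-5p: gCAGCACCauuaagauucac
miR172e-5p: gCAGCACCauuaagauucac
miR172d-5p: gCAACAUCuucaagauucaga
All 5 sequences from the 3′ arm share the seed GAAUCUU. Positions are counted from 1 at the 5′ end. miR172c and miR172d-3p differ from miR172a by U21G, miR172e-3p differs from it by A1G, and miR172b-3p is identical to it. miR172a and miR172c also lie on the 3′ arm of their precursors. The 5′ arm sequences of ath-MIR172b and ath-MIR172e are identical, and that of ath-MIR172d has another seed.

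These identities bear on the counts, because STAR's gene counting, which the authors used, assigns to a gene only reads that align at a single place. By exact match on both strands, the shared sequence of miR172a and miR172b-3p occurred at 2 places in the genome, and so did that of miR172c and miR172d-3p. Only 2 of the 8 annotated mature sequences occurred at 1 place, miR172d-5p and miR172e-3p. ath-MIR172d and ath-MIR172e are thus the loci with an annotated mature sequence of their own, and they are also the 2 loci with reads in every inflorescence library. A read of exactly miR172d-3p aligns at 2 places, so by this rule it would not be counted at ath-MIR172d. The same holds with 1 base added at either end (2 places) or without its last base (4 places). Under this rule the level of ath-MIR172d is not a measure of that sequence. Which other reads of the precursors were counted was not tested. The levels below are therefore reads counted at a locus, and a low value does not show a low amount of the miRNA.

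The precursors of the 2 tested loci are printed with their annotated mature arms in capitals.
ath-MIR172d: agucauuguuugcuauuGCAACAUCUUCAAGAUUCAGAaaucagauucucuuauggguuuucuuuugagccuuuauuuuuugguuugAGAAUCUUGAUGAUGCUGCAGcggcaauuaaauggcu
ath-MIR172e: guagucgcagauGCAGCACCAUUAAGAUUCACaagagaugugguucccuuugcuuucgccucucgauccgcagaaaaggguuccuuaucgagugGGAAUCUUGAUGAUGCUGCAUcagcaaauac
ath-MIR172d (AT3G55512) lies on the plus strand at chr3:20587904-20588027 and is 124 bases long. ath-MIR172e (AT5G59505) lies on the plus strand at chr5:23988472-23988596 and is 125 bases long. The other loci are on the minus strand, ath-MIR172a (AT2G28056) at chr2:11942914-11943015, ath-MIR172b (AT5G04275) at chr5:1188207-1188301 and ath-MIR172c (AT3G11435) at chr3:3599776-3599908. None of the 5 overlapped another annotated gene, and the nearest protein-coding gene was between 1090 and 3344 bases away. Outside the mature arms the precursors differed, and between 89.3% (ath-MIR172b) and 97.1% (ath-MIR172e) of their windows of 21 bases occurred only once in the genome.

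Sites for the mature sequences in 6 AP2-like genes are shown to set the 3 distinct 3′ arm sequences against their targets. Each site is the stretch of 21 bases in the annotated transcripts that pairs best with miR172d-3p, and capitals mark Watson-Crick pairs with it.
AP2: CUGCAGCAUCAUCAgGAUUCU
TOE1: CaGCAGCAUCAUCAgGAUUCU
TOE2: aUGCAGCAUCAUCAgGAUUCU
TOE3: ugGCAGCAUCAUCAgGAUUCU
SMZ: uUGCAGCAUCAUCAgGAUUCc
SNZ: uUGuAGCAUCAUCAgGAUUCc
The sites lie at chr4:17403019-17403039 on the plus strand (AP2, AT4G36920), chr2:12226233-12226253 on the minus strand (TOE1, AT2G28550), chr5:24210889-24210909 on the plus strand (TOE2, AT5G60120), chr5:26802175-26802195 on the minus strand (TOE3, AT5G67180), chr3:20373774-20373794 on the minus strand (SMZ, AT3G54990) and chr2:16389066-16389086 on the minus strand (SNZ, AT2G39250). Each was within the coding sequence of at least 1 annotated transcript. The site was in all annotated transcripts of AP2, TOE1, TOE2 and SNZ, in 1 of 2 of SMZ and in 1 of 4 of TOE3. The 6 sites shared 17 of 21 bases, with positions 5 to 20 the same in all of them. AP2 paired with miR172d-3p at 20 positions and had 1 G:U pair and 0 mismatches, whereas TOE2 had 0 mismatches with miR172a and miR172b-3p and 1 with miR172d-3p. For SMZ and SNZ the sequence of miR172e-3p left the fewest positions without a Watson-Crick pair. A match is a description of letters and was not tested as a site of action.

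**Figure D1:**
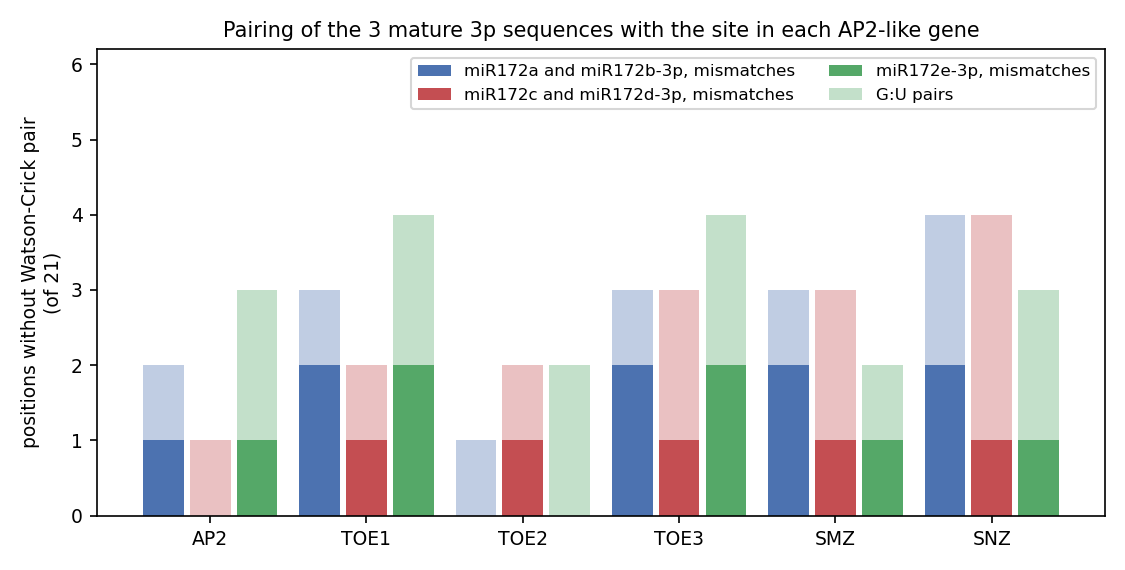
The bars give the number of positions, of 21, without a Watson-Crick pair between each of the 3 distinct 3′ arm sequences and the site in 6 AP2-like genes, with mismatches in full colour and G:U pairs in pale colour. The sequence of miR172c and miR172d-3p has 0 mismatches with AP2 and 1 with each other gene, and the other 2 sequences have 0 mismatches with TOE2.

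The deposited values are reads per 1000000 mapped reads (RPM). Within a library the values were whole multiples of 1 step, taken as the RPM of 1 read, with every value within 0.1 of a whole number. By this step the inflorescence libraries held an estimated 926300 to 2142752 mapped reads and the seedling libraries 148673 to 366691. A single read was worth 0.467 to 1.08 RPM in the former and 2.73 to 6.73 RPM in the latter. The file's run labels, each written at the first library of a block, place the seedlings in 1 sequencing run, days 0 and 2 in another and days 4 and 8 in another, so that tissue and run cannot be told apart for seedlings, nor stage and run between days 0 or 2 and days 4 or 8. A miRNA gene was tested where it reached 1 RPM in at least 2 libraries of the fit, which held for 137 genes in inflorescences and 153 with seedlings. limma on log2(RPM + 1) was used, and a gene was called at an adjusted p under 0.05. Scaling by the median ratio shifted the median log2 fold change of all genes by -0.23 for day 8 against day 2, and it moved the share of calls that rose from 64.0% to 53.1% there and from 64.1% to 53.3% for day 8 against day 0. With the quantile-normalized values this share moved from 80.0% to 58.8% for day 8 against day 4, and from 69.7% to 59.4% for day 8 against seedlings, where the median shifted by -0.45.

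ath-MIR172d was high in inflorescences from day 0 to day 4 and lower on day 8. On day 0 it had 44.0 RPM in replicate 1 (55 estimated reads) and 45.7 RPM in replicate 2 (73 reads). On day 2 it had 49.0, 55.8 and 30.3 RPM (105, 76 and 43 reads). The 3 day 2 libraries lay on both sides of the 2 day 0 libraries. On day 4 it had 33.5 and 41.7 RPM (31 and 71 reads), and on day 8 it had 15.5, 18.1 and 12.1 RPM (18, 26 and 19 reads). Every day 8 library was below every earlier inflorescence library, and the day 4 libraries overlapped those of day 2. In whole inflorescences, fewer cells with this RNA and less of it per cell cannot be told apart. The mean ranked 18 of all miRNA genes on days 0 and 2, 17 on day 4 and 32 on day 8.

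**Figure D2:**
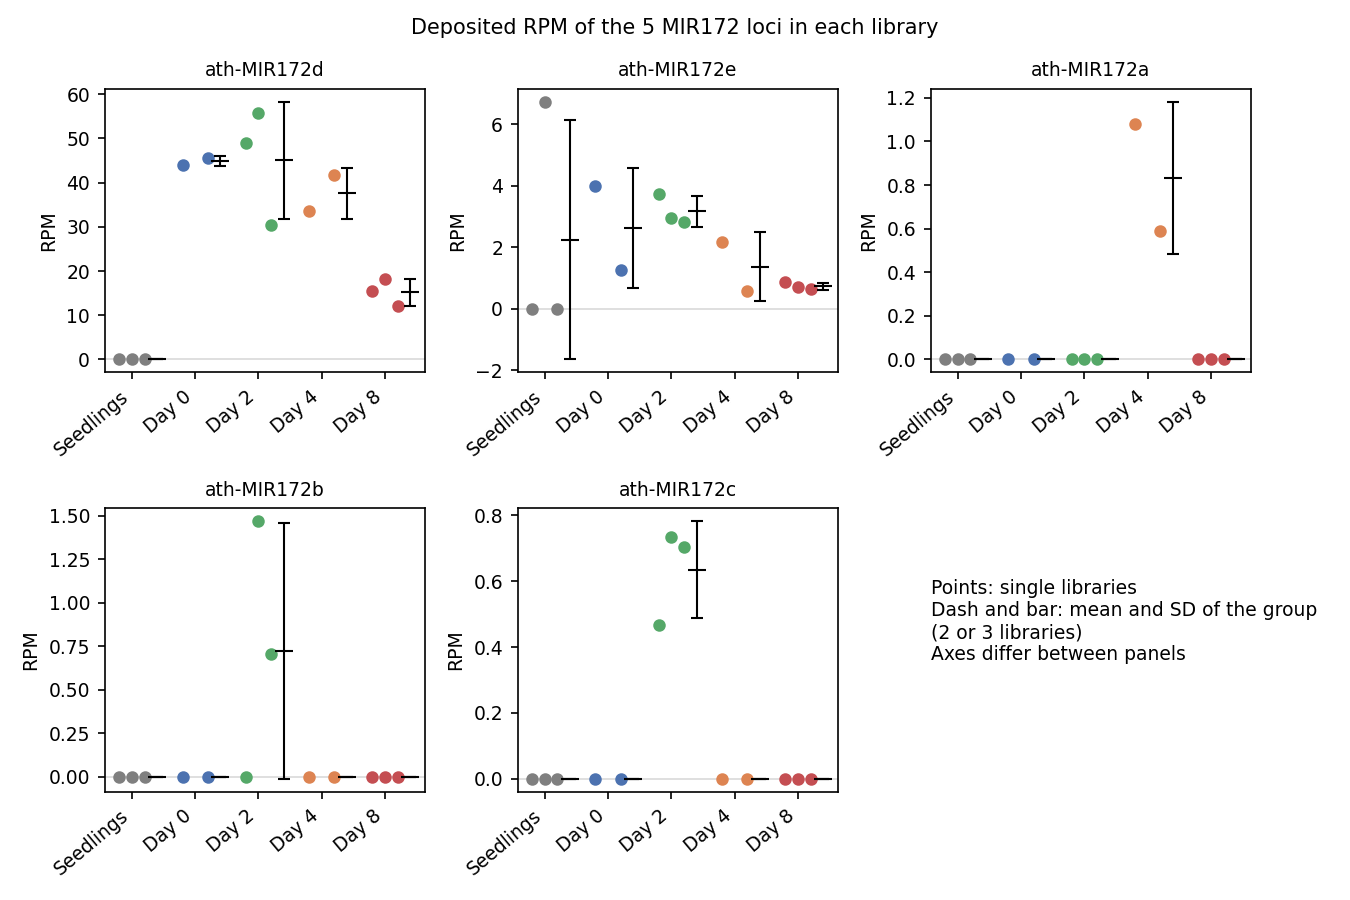
Each point is the deposited RPM of 1 library, by group along the x axis and with its own y axis in each panel, and the dash and bar beside the points are the mean and SD of the group. ath-MIR172d sits between 30.3 and 55.8 RPM on days 0 to 4 and between 12.1 and 18.1 RPM on day 8, while the other 4 loci stay at or below 6.73 RPM.

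From day 0 to day 2, the first step after dexamethasone, neither tested MIR172 locus was called, as was the case for all tested genes (0% called by limma, 11 genes at an unadjusted p under 0.05). The log2 fold change of ath-MIR172d was -0.04, with a 95% interval of -0.63 to 0.56. From day 2 to day 4 neither locus was called, against a background of 12.4% of tested genes called in either direction. The log2 fold change of ath-MIR172d was -0.22 (SE 0.29, limma adjusted p = 0.71), with an interval of -0.81 to 0.37, and it was 0.31 with the authors' quantile-normalized values.

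From day 4 to day 8, ath-MIR172d went to 40.5% of its earlier mean and 1 of the 2 tested MIR172 loci fell, where 2.92% of all tested genes fell. Its log2 fold change was the fifth lowest of 137 tested genes, with an interval of -1.85 to -0.67. Both groups come from the same run. The fall was called under each of the 20 alternatives computed for it, with adjusted p from 7.3e-05 to 0.043, and measured -2.02 with the quantile-normalized values.

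Over the longer spans ath-MIR172d had 33.8% of its day 2 mean and 34.0% of its day 0 mean on day 8. Its log2 fold change was -1.48 against day 2 (SE 0.26, limma adjusted p = 7.9e-05), where both tested MIR172 loci fell and 13.1% of tested genes fell. Against day 0 it was -1.51 (SE 0.29, limma adjusted p = 0.00030), where 1 of 2 tested loci fell and 10.2% of tested genes fell. These comparisons share the day 8 libraries and cross the 2 runs. Over the 4 stages together, ath-MIR172d was called by limma's F test with a largest difference between stage means of 1.51 on the log2 scale (adjusted p = 0.00016). For this test a difference of over 1 was also required, and 27.0% of tested genes were called. In the order of the means, day 2, day 0 and day 4 came first and were not called against each other in the 2 steps tested, and day 8 came last. Both day 4 libraries were below both day 0 libraries, a difference that was not tested.

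ath-MIR172e was counted in all 10 inflorescence libraries, at 1 to 8 reads. On day 0 it had 4.00 and 1.25 RPM (5 and 2 reads), and on day 2 it had 3.73, 2.94 and 2.82 RPM (8, 4 and 4 reads). On day 4 it had 2.16 and 0.587 RPM (2 and 1 reads), and on day 8 it had 0.861, 0.698 and 0.634 RPM (1 read in each library). The day 8 libraries were below every day 0 and day 2 library, while 1 day 4 library was below all 3 of them. That library and the day 8 libraries hold 1 read each, so the order among them is only that of their depth.

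The difference between day 8 and day 2 was called for ath-MIR172e (log2 fold change of -1.26, SE 0.44, limma adjusted p = 0.028). Reads of the day 8 group totalled 3, which gives 0.719 RPM with an exact Poisson interval of 0.148 to 2.10 for counting error alone, and the day 2 group totalled 16, which gives 3.25 RPM with an interval of 1.86 to 5.28. The size of the change depended on the pseudocount, at -0.51 with 5 and -1.57 with 0.5. The call was lost with all 13 libraries in the fit (adjusted p = 0.24) and, by limma, without day 2 replicate 1 (0.093), day 2 replicate 2 (0.052), day 8 replicate 2 (0.072) or day 8 replicate 3 (0.078). Its change was not called between day 4 and day 8 (-0.37, interval -1.39 to 0.65), between day 0 and day 8 (-0.96, interval -1.98 to 0.06, and -0.38 to -1.53 when 1 library was left out) or over the 4 stages (limma adjusted p = 0.11, and 0.045 with median-ratio scaling).

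**Figure D3:**
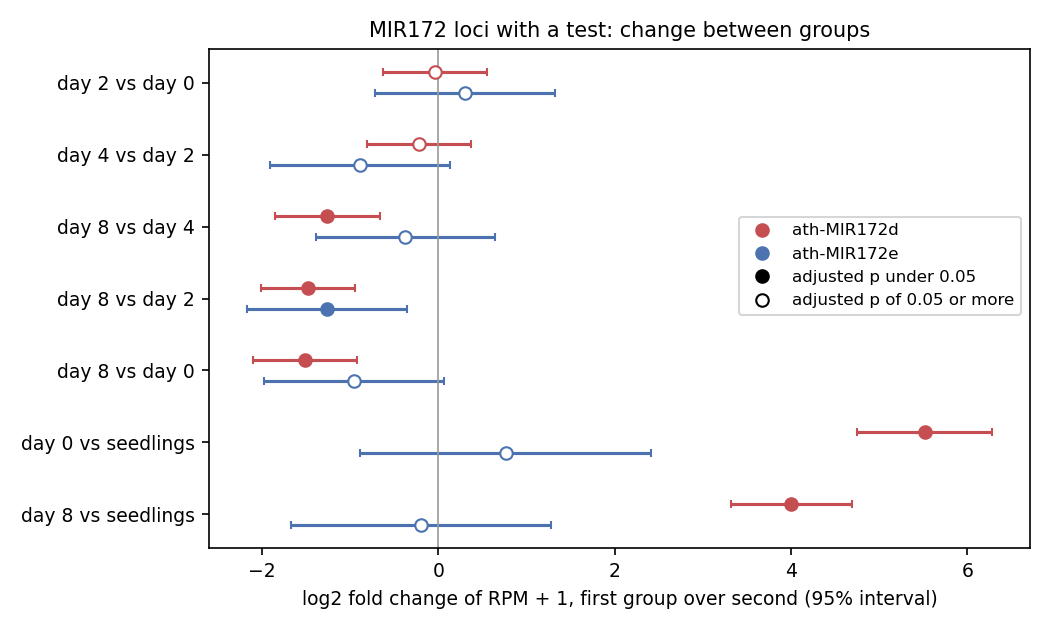
Points are log2 fold changes of RPM + 1 of the 2 tested loci for 7 comparisons, the first group named over the second, with bars for the 95% interval from limma and filled points for an adjusted p under 0.05. ath-MIR172d is filled for all 3 comparisons of day 8 with an earlier day and for both with seedlings, and ath-MIR172e only for day 8 against day 2.

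The remaining loci had single reads. ath-MIR172a had 1 read in each day 4 library (1.08 and 0.587 RPM) and 0 in the other 11 libraries. ath-MIR172b had 2 reads in day 2 replicate 2 and 1 in day 2 replicate 3, and ath-MIR172c had 1 read in each of the 3 day 2 libraries. Each of these loci was thus counted at 1 stage only, with 1 or 2 reads in a library, under the 3 reads used here as a floor. None reached 1 RPM in 2 libraries, and a test was not made for them. Without that filter, limma called ath-MIR172a between day 2 and day 4 (adjusted p = 0.036) and between day 4 and day 8 (0.030), and ath-MIR172c between day 2 and day 8 (0.040), on 2 and 3 reads in all. Few of the counted reads were at the other 4 loci beside ath-MIR172d. By STAR's counting rule, reads of mature sequences found at 2 places in the genome would not be among the counted ones. This was not checked on the reads. The shares below are thus of counted reads and not of the family's miRNA. Over the 10 inflorescence libraries 554 reads were counted at the 5 loci, and 517 of them, or 93.3%, were at ath-MIR172d. The share of ath-MIR172d was between 87.8% and 97.3% in each of these libraries. ath-MIR172e took 29 reads, ath-MIR172b 3, ath-MIR172c 3 and ath-MIR172a 2. Per 100 bases of precursor, the day 2 level was 36.3 RPM for ath-MIR172d and 2.53 RPM for ath-MIR172e, and the day 8 level was 12.3 and 0.585 RPM. The sum over the loci made up 0.124% to 0.233% of the RPM of all miRNA genes on days 0 to 4 and 0.0406% to 0.0592% on day 8, and on day 8 no library overlapped the earlier ones.

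In seedlings, ath-MIR172d was at 0 in all 3 libraries, and so were ath-MIR172a, ath-MIR172b and ath-MIR172c. The seedling libraries together held an estimated 797422 mapped reads, and 3 reads among these make a floor of 3.76 RPM. Relative to that floor ath-MIR172d was 11.9-fold higher on day 0, 12.0-fold on day 2, 9.99-fold on day 4 and 4.05-fold on day 8. The exact Poisson upper limit for 0 reads in the pooled seedling libraries was 4.63 RPM, above that floor. These folds are thus not lower bounds. At its day 0 level 35.7 reads would have been counted in seedlings, and at its day 8 level 12.1. ath-MIR172d rose by the test in both comparisons with seedlings (limma adjusted p = 4.5e-08 for day 0 and 3.0e-07 for day 8), 1 of 2 tested loci in each. It passed the filter through inflorescence libraries only, and its 3 seedling values of 0 add no spread to the fit. These p-values therefore do not measure counting error in seedlings. Of all 153 tested genes, 30.1% rose from seedlings to day 0 and 34.6% from seedlings to day 8. The shallower seedling libraries had 62 to 79 miRNA genes above 0, and the inflorescence libraries 118 to 140. The fitted fold changes depend on the pseudocount and are drawn only in the plot of fold changes.

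ath-MIR172e had 1 read in seedling replicate 2, which is 6.73 RPM in that shallow library and more than in any inflorescence library, and 0 in the other 2. It was not called against seedlings (limma adjusted p = 0.44 for day 0 and 0.86 for day 8). Without seedling replicate 2, which leaves 2 seedling libraries at 0, the difference between day 0 and seedlings was called (limma adjusted p = 0.011). At this depth ath-MIR172e could not be placed above or below seedlings.

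The 14 loci of the miR156 and miR157 families, whose miRNAs act upstream of MIR172 through SPL genes, were set beside ath-MIR172d. Against seedlings 8 of them were tested, 5 fell and 1 rose by day 0, where 15.7% of all tested genes fell, and again 5 fell and 1 rose by day 8, where 15.0% fell. The list's median log2 fold change was -2.42 for day 0, against 0.59 over all tested genes. ath-MIR157c, with the highest mean of the list over all 13 libraries, had 84.5, 74.0 and 152 RPM in seedlings and 0 to 1.08 RPM on days 0 to 4. On day 8 it had 6.03, 2.79 and 1.27 RPM (7, 4 and 2 reads). ath-MIR156c had 84.5, 87.4 and 53.2 RPM in seedlings and 0 to 2.94 RPM in inflorescences. ath-MIR156a had 43.6, 94.2 and 67.4 RPM in seedlings and 0 to 1.08 RPM on days 0 to 4. All 3 were higher in every seedling library than in every inflorescence library, whereas ath-MIR172d had 0 reads in every seedling library. In seedling replicate 2 the floor of 3 reads was 20.2 RPM, above the day 8 values of ath-MIR172d, 12.1 to 18.1 RPM. That library alone could thus not place ath-MIR172d below day 8. For the pooled seedling libraries the exact Poisson upper limit for 0 reads, 4.63 RPM, was below every day 8 value. The exception that rose was ath-MIR157d, which was at 0 in all seedling libraries and had 9.09 ± 0.412 RPM (SD, n = 2) on day 0. That level is within the floors of 3 reads in single seedling libraries, 8.18 to 20.2 RPM, and above the 3.76 RPM of the 3 together. As for ath-MIR172d, its seedling values of 0 add no spread to the fit. The tests of its rise therefore do not measure counting error in seedlings. The annotated mature sequence of ath-MIR157d does not occur at a single place in the genome.

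Between stages 6 of the 14 were tested, and 0 of the 6 fell by limma in the comparisons of day 8 with days 4, 2 and 0, where 2.92%, 13.1% and 10.2% of all tested genes fell. From day 4 to day 8, where ath-MIR172d fell, 2 of the 6 rose (ath-MIR156a and ath-MIR157d), while 11.7% of all tested genes rose. From day 2 to day 8, 3 rose (ath-MIR156a, ath-MIR157c and ath-MIR157d) beside 23.4% of all tested genes. From day 0 to day 8, 2 rose (ath-MIR156a and ath-MIR157c) beside 18.2%. The list's median log2 fold change from day 4 to day 8 was 1.29, against 0.15 over all tested genes. ath-MIR156a had 12.1, 3.49 and 1.90 RPM on day 8 (14, 5 and 3 reads) and rose by 1.94 on the log2 scale from day 4 (SE 0.56, limma adjusted p = 0.017).

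**Figure D4:**
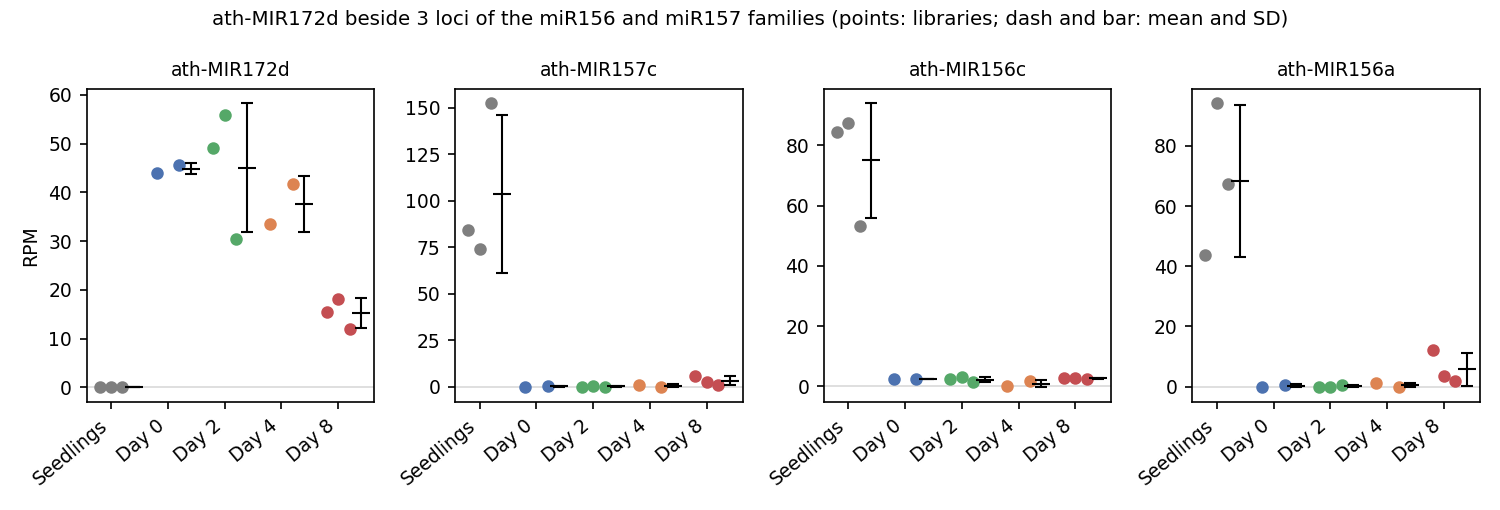
Each point is the RPM of 1 library of ath-MIR172d and of the 3 miR156 and miR157 loci with the highest mean over all libraries, with the mean and SD of each group beside the points and a y axis for each panel. ath-MIR172d is at 0 in seedlings and reaches 55.8 RPM on day 2, while the other 3 loci have their highest values, 87.4 to 152 RPM, in seedlings.

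The miRNA genes with the course most like that of ath-MIR172d over the 10 inflorescence libraries were ath-MIR164c, ath-MIR4228 and ath-MIR319b, with Pearson's r of log2(RPM + 1) of 0.86, 0.84 and 0.79. These values are a description over libraries that share their depth and run with every gene. ath-MIR164c belongs to the family that targets CUC boundary genes. Its mean was 30.6 ± 4.30 RPM in the 2 libraries of day 0, 18.8 ± 5.10 RPM in the 3 of day 2, 27.7 ± 5.11 RPM in the 2 of day 4 and 9.03 ± 1.37 RPM in the 3 of day 8 (SD). Its day 2 mean was thus below those of days 0 and 4, whereas that of ath-MIR172d was not. ath-MIR319b, whose miRNA targets TCP genes, had already gone from 2753 ± 262 RPM in the 3 day 2 libraries to 145 ± 27.6 RPM in the 2 day 4 libraries (SD), a step in which ath-MIR172d was not called. For ath-MIR172e the most alike were ath-MIR403 (r = 0.84), ath-MIR319b (0.82) and ath-MIR399b (0.81). ath-MIR172d and ath-MIR172e had an r of 0.65 with each other, and 8 other tested genes were more like ath-MIR172d than ath-MIR172e was.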

How the data were processed

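Small RNA libraries were trimmed with Trim Galore and aligned to TAIR10 with STAR, and the authors deposited RPM, the STAR gene counts of miRNA genes per 1000000 mapped reads, and a quantile-normalized RPM table. For these libraries the sources used here state neither tool versions nor the strand setting. The kits named by the labels and by the study's methods differ. The RPM of 1 read was estimated from each library's low values. All 13 libraries were grouped by their labels, and 3 libraries of no sample were not used. limma 3.58.1 in R 4.3.3 was fitted to log2(RPM + 1) with a trend on intensity, using the 10 inflorescence libraries, or all 13 for comparisons with seedlings, with Benjamini-Hochberg adjustment over all tested genes, two-sided, at 0.05. The script was tested on simulated data. Labels do not state separate plants, so p-values measure the spread between these samples. Replicates differed beyond sampling noise. Named genes were all 5 loci, the 3 genes most correlated with each tested locus, and the 3 most abundant miR156 or miR157 loci. Members and lists were chosen with earlier results of these data known. Alternatives were other pseudocounts, filters, scalings and fits, and leaving out each library. A log-scale test was chosen because the deposited values are RPM, and count models on the estimated reads were not tried.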

Additional observations from a re-analysis of the deposited data

How the results depend on the processing

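For ath-MIR172d, the calls of day 8 against day 4, day 2 and day 0 and over the 4 stages were kept in every alternative computed. Its calls against seedlings were also kept. Each alternative starts from seedling libraries with 0 reads of this locus, so that adds no support to them. The number of MIR172 loci called changed as follows. Without the filter on low values it was 1 for day 4 against day 2, 2 for day 8 against day 4 and 3 for day 8 against day 2. For day 8 against day 2 it was 1 with at least 10 RPM in 2 libraries, where ath-MIR172e was not tested, and 1 with all 13 libraries in the fit. With median-ratio scaling it was 2 over the 4 stages. Leaving out 1 library gave 1 to 2 loci for day 8 against day 2 and 1 to 2 for day 0 against seedlings. The cause of these changes was not tested.

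The 316 refitted values held fold changes and largest differences between stage means over the 4 stages (19 for ath-MIR172d, 18 for ath-MIR172e). The latter cannot be negative. Of the 316 values, 7 changed sign, none of them called in either fit. Those of ath-MIR172d were day 4 against day 2 with quantile-normalized values (0.31), and day 2 against day 0 with the replicate block (0.17) and without day 2 replicate 3 (0.22, in a range of -0.21 to 0.22 when libraries were left out in turn). Those of ath-MIR172e were day 8 against seedlings with a pseudocount of 0.5 (0.011) and without seedling replicate 2 (0.79, range -0.69 to 0.79), day 2 against day 0 without day 0 replicate 2 (-0.27, range -0.27 to 0.88) and day 8 against day 4 without day 4 replicate 1 (0.12, range -0.87 to 0.12). Replicate numbers did not pair the samples, with 2 of 13 same-number pairs correlated over 0.1, and the replicate block changed no call of these loci.

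Counts over all genes moved by over 1.5 times in some settings. Over the 4 stages, 37 genes were called and 20 with a pseudocount of 5. With at least 10 RPM in 2 libraries the calls were 31 rather than 50 for day 8 against day 2, 23 rather than 37 over the 4 stages, and 43 rather than 70 and 41 rather than 76 for days 0 and 8 against seedlings, among fewer genes tested. For day 8 against day 0 there were 23 rather than 39 with all 13 libraries, and for day 8 against day 4 there were 12 rather than 20 without day 4 replicate 1. Depth limits the loci with few reads: a level under 3 reads, which is 1.40 to 3.24 RPM in single inflorescence libraries and 8.18 to 20.2 RPM in those of seedlings, could not be told from 0. The exact Poisson intervals and the floors cover counting error only, whereas limma's intervals come from the spread between libraries.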

Other observations

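The split of the MIR172 loci by mature sequences found at a single place was also described over the whole table. Mature sequences were annotated for all 325 miRNA genes. Of the 210 genes with at least 1 mature sequence at a single place in the genome, 85 (40.5%) had a mean of at least 1 RPM over the inflorescence libraries, and of the 115 genes with none, 18 (15.7%) did. ath-MIR319a and ath-MIR319b were among the 18, with means of 2291 and 1492 RPM, so that counted reads also came from genes with no such sequence. In the authors' quantile-normalized table ath-MIR172d is given values of 0.263 to 0.510 in seedlings, where the RPM are 0, and 75.6 in day 4 replicate 2, where the RPM is 41.7.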
